A study of Mus musculus with 6 samples.

Results

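The coding 1700-series genes are mouse genes that still carry, in the deposited files, the clone name given to them when complementary DNA from adult testis was sequenced at large scale (RIKEN clones whose names start with 1700). A gene belonged to the group when its symbol started with 1700 and ended in Rik and at least 1 of its RefSeq transcripts was a protein-coding record (accession starting with NM_). This rule found 122 of the 24411 genes in the files. It left 243 genes of the same clone series with noncoding records alone. Another RIKEN adult testis clone series gave 30 coding genes. The RefSeq gene table for GRCm38.p6 matched 119 of the 122 by accession and listed 39 of them under a newer symbol, which is given here in parentheses or as a synonym.

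RNA was sequenced from whole testes of C57BL/6 mice, an inbred laboratory strain. The 3 animals labelled DKO had the genotype MRP5-/- and MRP9-/-, and the 3 labelled WT were wildtype and of matched age. MRP5 and MRP9 are membrane transporters of the ABCC family, encoded by Abcc5 and Abcc12. The age and the design of both alleles are not given in the sources used here.

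Genes that keep a clone name are often those whose proteins were studied late, and many of them are used mainly in male germ cells. Sperm develop from spermatogonia through meiotic spermatocytes to haploid spermatids, which pack their chromatin, form the acrosome and build a flagellum around a microtubule axoneme. Transcripts made in round spermatids are often stored and translated later, so a high transcript level in testis is typical of genes for sperm parts.

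Germ cell markers were abundant in all 6 libraries. Markers of elongating spermatids summed to 27567 to 32173 CPM (counts scaled to library size) in libraries labelled DKO and 28528 to 32070 CPM in those labelled WT. Leydig cell markers summed to 458 to 668 CPM and 643 to 1213 CPM, and Sertoli markers to 1573 to 1834 CPM and 1776 to 2086 CPM, in the same order. At an adjusted p under 0.05 (edgeR quasi-likelihood test), 3 of 9 Leydig and 4 of 13 Sertoli markers were lower in libraries labelled DKO. The share over all genes tested was 5.10% lower and 5.75% higher. Of 14 spermatocyte markers 2 were higher and 0 lower, and of 12 elongating spermatid markers 1 was higher and 1 lower. Of the spermatogonia markers 0 of 11 tested were called, and of the round spermatid markers 0 of 12. Macrophage markers (0 of 9 called) summed to 77.2 to 87.2 CPM in libraries labelled DKO and 71.9 to 114 CPM in those labelled WT. Endothelial markers (0 of 4) summed to 32.2 to 35.9 and 37.5 to 39.2 CPM, and peritubular markers (1 of 5, lower) to 117 to 131 and 133 to 176 CPM. Median log2 fold changes were -0.48 (Leydig), -0.212 (Sertoli), -0.382 (macrophage), -0.199 (endothelial) and -0.31 (peritubular). For spermatogonia, spermatocytes, round and elongating spermatids they were 0.004, 0.255, 0.066 and -0.001. The 4 blood markers summed to 0.237 to 4.2 CPM in libraries labelled DKO and 0.355 to 0.873 CPM in those labelled WT, with Hba-a2 and Hbb-bs at 0 in every library. The 6 epididymis markers summed to 5.6 to 6.45 and 4.48 to 5.98 CPM, with Lcn5 and Lcn8 at 0 in every library. The part of these cell types in the results below was not tested, and in whole tissue fewer cells of a type and less RNA per cell cannot be told apart. Abcc12 was reduced but still present, at 72.6 to 82.4 CPM in libraries labelled DKO and 158 to 165 CPM in those labelled WT (log2 fold change -1.02; edgeR adjusted p = 0.000307). Abcc5, the other gene named in the genotype, was called higher (log2 fold change 0.56; edgeR adjusted p = 0.0225). It had at least 16.7 CPM in every library labelled DKO and at most 12.3 CPM in those labelled WT. The groups are therefore named by their labels throughout. The deposited totals were 42673615 to 67131103 expected counts in libraries labelled DKO and 26753721 to 31745969 in those labelled WT. The mean fragment length was 275 to 317 bases and 230 to 258 bases, so neither depth nor fragment length overlapped between the groups.

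Short stretches before the start sites of 6 members that differed between the groups are shown first, because binding sites of known germ-cell regulators can be looked for in them. CREM, a spermatid activator, binds the cyclic AMP response element TGACGTCA and its shorter form TGACG. RFX factors, which switch on cilium genes, bind the X-box, and GTTGCC is a part of it. Each stretch is RefSeq sequence of GRCm38.p6, 5′ to 3′ on the strand of the gene, and ends before the start site. Capitals mark the match, which reads GGCAAC or CGTCA where it lies on the opposite strand. The members were picked after their values were seen. The first 4 genes were higher and the last 2 lower in libraries labelled DKO.
1700109H08Rik (chr5:3571618-3571683, plus strand, match 68 bases before the start site): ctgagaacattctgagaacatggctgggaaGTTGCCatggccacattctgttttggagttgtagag
1700102P08Rik (chr9:108392676-108392741, plus strand, 128 bases before): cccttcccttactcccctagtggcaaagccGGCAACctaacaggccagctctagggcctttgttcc
1700074P13Rik (chr6:40940558-40940605, minus strand, 18 bases before): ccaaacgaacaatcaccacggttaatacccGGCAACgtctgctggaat
1700066M21Rik (chr1:57377560-57377619, plus strand, 30 bases before): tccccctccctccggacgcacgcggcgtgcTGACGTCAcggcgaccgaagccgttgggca
1700037H04Rik (chr2:131160182-131160246, minus strand, 135 bases before): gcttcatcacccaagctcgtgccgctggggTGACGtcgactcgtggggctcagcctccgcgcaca
1700018B08Rik (chr8:121544357-121544421, minus strand, 63 bases before): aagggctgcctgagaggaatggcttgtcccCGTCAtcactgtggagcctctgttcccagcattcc

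Promoter windows of 250 bases before to 50 bases after the start site were found for 99 members and searched on both strands. GTTGCC was in a window of 23 of the 99 members (23.2%), against 14.3% of 17492 protein-coding genes. CAGTTG, a MYB site, was in 21.2% of members and 14.2% of coding genes. TGACG was in 22.2% of members and 26.2% of coding genes, and TGACGTCA, which contains it, in 1 member, 1700066M21Rik, and 2.54% of coding genes. Of the members called higher in libraries labelled DKO that had a window, 3 of 13 held GTTGCC, 3 of 13 held TGACG and 1 of 13 held CAGTTG. Of those called lower, 1 of 5 held GTTGCC, 3 of 5 held TGACG and 1 of 5 held CAGTTG. These are letter matches in a window and say nothing about binding.

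All 122 members were expressed in testis. Each reached at least 1 TPM (a transcript level scaled by length and library size) in all 3 libraries labelled WT, against 57.2% of all genes and 85.6% of the noncoding 1700-series genes. The median mean level was 172 TPM over the members, 15.2 TPM over noncoding 1700-series genes, 32.3 TPM over the coding genes of the other clone series and 2.54 TPM over all genes. Above 100 TPM stood 77 members (63.1%), against 7.44% of all genes. The members together held 3.19% of all TPM in libraries labelled WT, and their summed level was 30938 to 33057 TPM there and 32328 to 33138 TPM in libraries labelled DKO, which overlap.

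**Figure D1:**
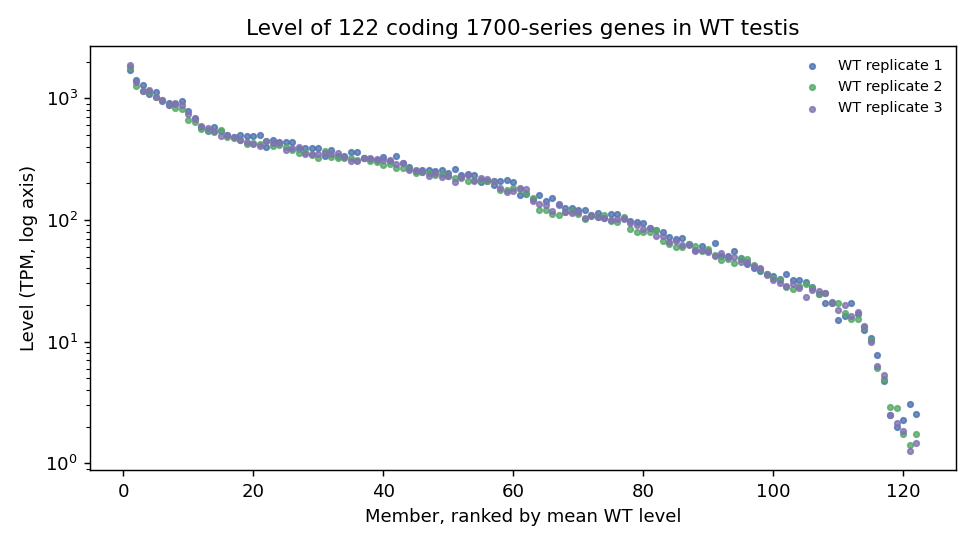
Level in TPM (log axis) of each member in the 3 libraries labelled WT, with members ranked by their mean; each point is 1 library. The points of most members lie close together, those of a few low members lie apart, and 115 of the 122 members have at least 10 TPM in all 3 libraries.

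The ranked levels covered 3 orders of magnitude, from 1.91 to 1795 TPM, with 5 members above 1000 TPM, 72 between 100 and 1000, 38 between 10 and 100 and 7 below. The spread between libraries labelled WT was small beside this range for most members, with a median coefficient of variation of 7.38% in CPM (8.37% over all tested genes). The highest was 55.5%, in 1700031F05Rik (named after its values were seen), which had 3.07, 1.42 and 1.26 TPM. The 10 highest members held 34.1% of the TPM of the whole group, and 5 of these 10 have transcripts under 600 bases.

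The highest was 1700015G11Rik (synonym Ccdc179, a small coiled-coil protein gene on chromosome 7), at 1714, 1803 and 1869 TPM in libraries labelled WT. It was followed by 1700010D01Rik at 1409, 1256 and 1368 TPM and by 1700092M07Rik (synonym Tex54, for testis expressed) at 1277, 1158 and 1143 TPM. 1700024P04Rik (H2bl1, a histone H2B relative of the region under the acrosome) had 1077, 1152 and 1176 TPM. The highest member did not overlap with any other, while 1700010D01Rik overlapped Tex54, and Tex54 overlapped H2bl1. The next was 1700003F12Rik with 1064 ± 61.5 TPM (SD, n = 3), whose libraries overlapped those of H2bl1. After it came 1700029F12Rik, 1700029H14Rik, 1700042G07Rik, 1700013G24Rik and 1700009N14Rik with means of 967, 897, 887, 879 and 730 TPM. Of these, 1700029H14Rik, 1700042G07Rik and 1700013G24Rik overlapped.

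The members' changes were modest in size. Of the 122, all of which passed the filter on low counts, 16 were called higher in libraries labelled DKO (13.1%), against 5.75% of the 17110 genes tested, and 7 were called lower (5.74%), against 5.10% (edgeR quasi-likelihood test, Benjamini-Hochberg adjusted p under 0.05 over all genes). The largest differences were 0.69 (SE 0.20) and -0.74 (SE 0.10) as log2 fold change, and none reached 1 in size. The median log2 fold change was 0.06 over the members and 0.00 over all genes tested (-0.004), and 59.8% of members lay above 0 against 49.3% of all genes. It was -0.03 over the 213 tested noncoding 1700-series genes, of which 4.69% were called higher and 8.45% lower. Over the 30 coding genes of the other clone series it was 0.14, with 4 called higher and 0 lower. At an unadjusted p under 0.05 (edgeR) 11 of these 30 were higher and 1 lower, against 2896 and 2532 of the 17110 genes tested. Whether these lists differ from each other was not tested.

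The adjusted p-values of the 23 called members lay between 0.0153 and 0.0493 (edgeR), and the calls depended on single libraries and on the test. Without DKO replicate 1 or WT replicate 3 no member was called in either direction (in each fit 37 members had an unadjusted p under 0.05 by edgeR). Without WT replicate 2 there were 0 higher and 1 lower, and without DKO replicate 2 there were 4 higher and 11 lower. With all 6 libraries 33 members were higher and 19 lower at an unadjusted p under 0.05 (edgeR), against 2896 and 2532 of the 17110 genes tested. For the other fits the count of all genes at that cut is not given here, so their member counts have no background. The loss of calls ran over the whole table. Over all genes, 11 were called without DKO replicate 1, 7 without WT replicate 3 and 13 without WT replicate 2. Without DKO replicate 2, 0.993% of all genes were called higher and 2.83% lower. In these 4 fits, and in those without DKO replicate 3 or WT replicate 1, all 16 higher members kept a log2 fold change above 0 and all 7 lower members one below 0. This says little about stability. The groups did not overlap in CPM for 22 of these 23 members, so leaving out 1 library could hardly change a sign. With the mean fragment length as a covariate no member was called (7 had an unadjusted p under 0.05 by edgeR), and 1 of all 17110 genes was. Fragment length did not overlap between the groups, so this fit separates fragment length and genotype label poorly. With the effective lengths of each library as an offset 22 members were called higher and 5 lower, against 5.59% and 4.12% of all genes. On log2(TPM + 1) limma without a mean-variance trend called no member (52 had an unadjusted p under 0.05). Over all genes it called 5 higher and 18 lower. With a trend, a setting added after that result was seen, it called 11 members higher and 5 lower, against 1.63% and 2.67% of all genes.

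**Figure D2:**
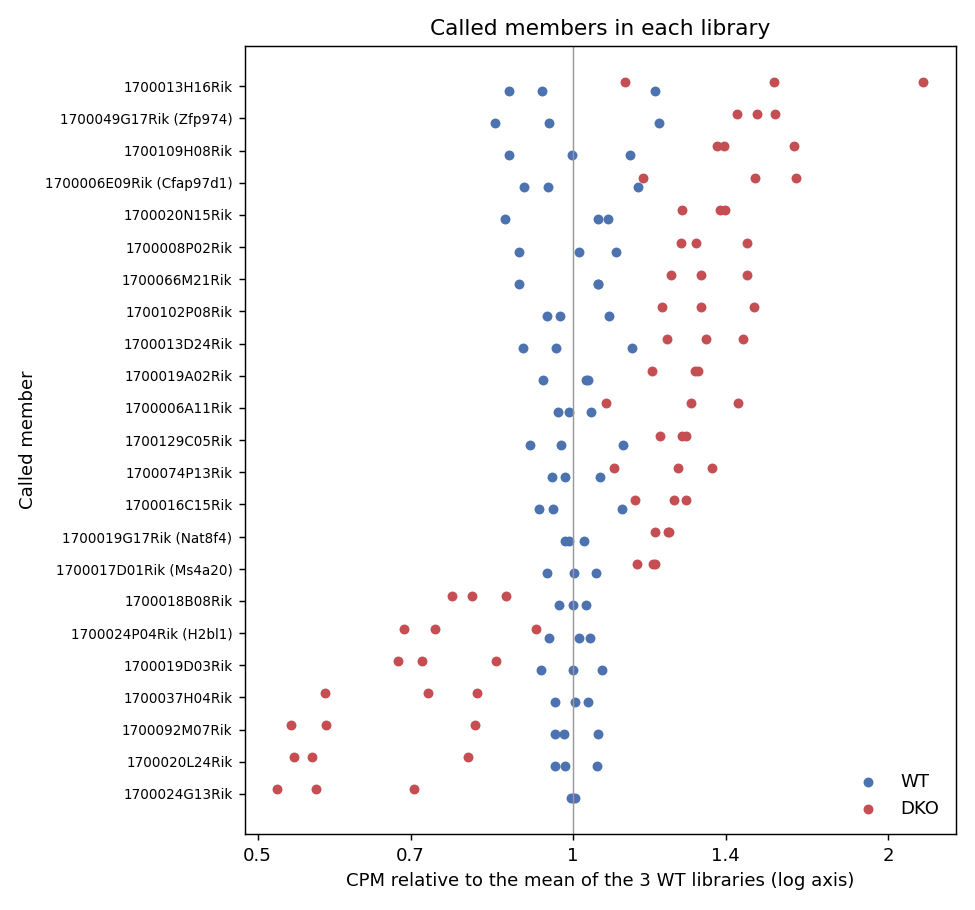
CPM of the 23 called members in each library, divided by the mean of the libraries labelled WT (log axis); red points are libraries labelled DKO, blue points those labelled WT. For 22 members the groups do not overlap, and for 1700013H16Rik they do.

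Of the 16 members called higher, 12 had their highest value in DKO replicate 1, the library with the longest fragments, as did 90.3% of all genes called higher. The groups did not overlap for 22 of the 23 called members. Among the other 99, 30 also did not overlap, and 83 had a log2 fold change within 0.25 of 0. Without overlap and higher in libraries labelled DKO were 24.6% of members and 18.4% of all genes tested, and without overlap and lower 18.0% and 17.5%.

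Of the 8 members listed here under a flagellar role, 7 were above 100 TPM in libraries labelled WT, and Cfap77 was at 39.3 TPM. Of the 8, 1 was called, higher in libraries labelled DKO, against 5.75% of all genes tested. 1700006E09Rik (Cfap97d1, needed in mouse sperm to keep the axoneme whole; chr11:101987056-101992264) had 113, 103 and 80.6 CPM in libraries labelled DKO and 79.8, 65.5 and 62.1 CPM in those labelled WT. Every library labelled DKO was above every one labelled WT, by a narrow margin for DKO replicate 3. The log2 fold change was 0.52 (SE 0.125; edgeR adjusted p = 0.0346).

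The other flagellar members were not called. 1700003M02Rik (Cfap206, part of the radial spoke region) had 582, 552 and 522 CPM in libraries labelled DKO and 510.0, 452 and 486 CPM in those labelled WT, without overlap (log2 fold change 0.19, SE 0.0758; edgeR adjusted p = 0.105). 1700040L02Rik (Cabcoco1, a ciliary calcium-binding protein) was similar, at 125 to 128 against 105 to 119 CPM (0.18; edgeR adjusted p = 0.0995). 1700019L03Rik (Cfap157, required for a normal axoneme in sperm) was at 85.3 to 96.2 against 98.9 to 101 CPM (-0.13; edgeR adjusted p = 0.227). 1700101E01Rik (Cfap77), 1700026D08Rik (Cfap161), 1700007G11Rik (Cfap299) and 1700026L06Rik (Spaca9) had log2 fold changes of -0.20, 0.00, -0.05 and -0.13. Cfap77 and Cfap161 bind inside the microtubules of the axoneme. Of the 8 flagellar members 4 lay above 0, and the median was -0.02. Of 29 other axoneme genes tested, 3 were called higher (Cfap44, Cfap69 and Spag17) and 0 lower, with a median log2 fold change of 0.03. The share of all genes called higher was 5.75%.

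Among genes for the sperm head, 1 of 4 was called lower, against 5.10% of all genes tested. H2bl1 had 132, 165 and 124 CPM in libraries labelled DKO and 170.0, 182 and 186 CPM in those labelled WT. DKO replicate 2 lay just under the lowest library labelled WT. The log2 fold change was -0.35 (SE 0.101; edgeR adjusted p = 0.048), and with the effective-length offset it was -0.09 (edgeR adjusted p = 0.581). The transcript has 476 bases. 1700012L04Rik (H2al1m, an H2A variant that replaces histones in late spermatids; X chromosome) had 18.3 to 23.7 against 18.4 to 21.4 CPM, which overlap, and its counts were fractional. 1700034O15Rik (Llcfc1, required for sperm to fuse with the egg) had 153 to 166 CPM against 169 to 195 CPM, without overlap (log2 fold change -0.16; edgeR adjusted p = 0.173). 1700015E13Rik (Spata46, which helps shape the sperm head) overlapped, at 126 to 135 against 130 to 156 CPM.

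Of the 4 members with testis-expressed names, 1 was called lower, against 5.10% of all genes tested. Tex54 had 63.6, 95.5 and 68.7 CPM in libraries labelled DKO and 125, 116 and 114 CPM in those labelled WT. It was lower in all 3 libraries labelled DKO, least so in DKO replicate 2 (log2 fold change -0.64, SE 0.128; edgeR adjusted p = 0.0263). Its transcript has 380 bases, and with the effective-length offset the change was -0.26 (edgeR adjusted p = 0.13). 1700018C11Rik (Tex48) was at 136 to 138 against 112 to 131 CPM, without overlap (0.17; edgeR adjusted p = 0.138, and 0.0446 with the offset, where the log2 fold change was 0.31). 1700019O17Rik (Tex44) was at 124 to 149 against 110 to 127 CPM, with overlap (0.26; edgeR adjusted p = 0.0731). 1700019B03Rik (Tex45) had a log2 fold change of 0.02.

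Members of X-linked and meiotic families included the largest increase. 1700013H16Rik (synonyms Slx2 and Xlr6, of a multicopy X-linked family; chrX:53742901-53757970) had 43.5, 31.3 and 22.6 CPM in libraries labelled DKO and 24.1, 17.5 and 18.8 CPM in those labelled WT. DKO replicate 3 was under WT replicate 1, so the groups overlapped. The log2 fold change was 0.69 (SE 0.20; edgeR adjusted p = 0.0493), and with the fragment length as a covariate it was -0.34. This member was not called by DESeq2 (adjusted p = 0.0913) or limma-voom (adjusted p = 0.065). Of the 5 X-linked members 2 were called higher, against 5.75% of all genes tested. The other is 1700020N15Rik, with 35.8, 35.4 and 32.6 against 27.7, 22.1 and 27.1 CPM (log2 fold change 0.43, SE 0.0952; edgeR adjusted p = 0.0289). It does not overlap between groups, but its counts were fractional, which means fragments were shared with other genes, and it lies over 1700111N16Rik. The other members listed here are not X-linked and lie on chromosome 19. 1700123I01Rik (Majin, which anchors meiotic telomeres to the nuclear envelope) was low, at 7.92 to 8.88 against 8.98 to 9.94 CPM, without overlap (-0.16; edgeR adjusted p = 0.295). 1700020D05Rik (synonym mage-g2, of the MAGE family) was at 189 to 196 against 159 to 183 CPM, without overlap (0.15; edgeR adjusted p = 0.194).

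All 4 enzyme-type members, a group formed after values were seen, had a log2 fold change above 0, as did 49.3% of all genes tested, and 2 were called higher, against 5.75% of all genes. 1700074P13Rik (synonym Tryx5, a trypsin-like serine protease) had 317, 294 and 255 CPM in libraries labelled DKO and 248, 223 and 229 CPM in those labelled WT, without overlap (log2 fold change 0.31, SE 0.0875; edgeR adjusted p = 0.0475). 1700019G17Rik (Nat8f4, of an N-acetyltransferase family) had 35.6, 34.6 and 35.7 against 28.4, 29.6 and 28.6 CPM (0.29, SE 0.0698; edgeR adjusted p = 0.0343). Nat8f4 had the tightest groups of these, though its counts were fractional. 1700080E11Rik (Nudt16l2, of the Nudix hydrolase family) had 106 to 118 against 83.8 to 101 CPM, without overlap (0.25; edgeR adjusted p = 0.0725). 1700061G19Rik (Acsbg3, of the acyl-CoA synthetase family) overlapped, at 0.10.

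Of the 4 membrane and signalling members, 1 was called higher and 1 lower, against 5.75% and 5.10% of all genes tested. 1700017D01Rik (Ms4a20) and 1700025F22Rik (Ms4a19) encode tetraspanning membrane proteins and lie side by side on chromosome 19. Ms4a20 had 249, 248 and 239 CPM in libraries labelled DKO and 218, 196 and 208 CPM in those labelled WT (log2 fold change 0.24, SE 0.0696; edgeR adjusted p = 0.0491). Ms4a19, at 23.5 to 27.1 against 20.3 to 22.6 CPM, had nearly the same log2 fold change, 0.24 (edgeR adjusted p = 0.0906). Neither overlapped between the groups. 1700019D03Rik (synonym smAKAP, a small membrane anchor for protein kinase A, the cyclic AMP-dependent kinase; chr1:52922324-52992657) had 64.8, 80.3 and 68.2 CPM in libraries labelled DKO and 102, 88.7 and 95.1 CPM in those labelled WT. It was lower in all 3 (log2 fold change -0.42, SE 0.0905; edgeR adjusted p = 0.0282, and -0.34 with the offset). 1700039E15Rik (Slc6a21, of the neurotransmitter transporter family) overlapped, at -0.03. So did 1700021K19Rik (Rubcn, an inhibitor of autophagosome maturation) at 0.01 and 1700021F05Rik (Mtres1, which supports mitochondrial transcription) at 0.11.

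**Figure D3:**
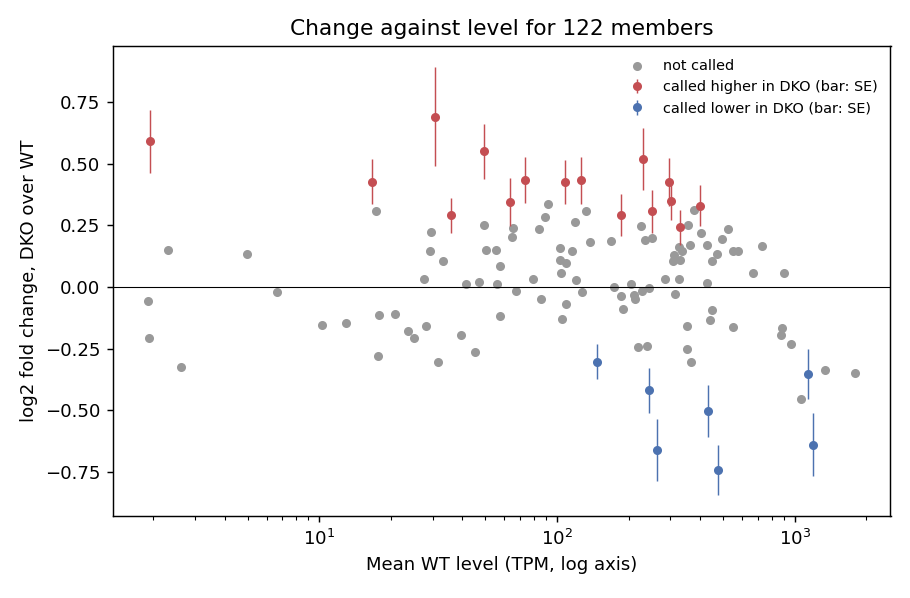
Log2 fold change of labelled DKO over labelled WT against the mean level in libraries labelled WT (TPM, log axis) for all 122 members; bars on called members are the standard error. The 7 members called lower have WT levels from 147 to 1193 TPM, and the 16 called higher from 1.95 to 400.4 TPM.

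In the plot of change against level, the 7 members called lower all lay above 100 TPM. The strongest was 1700024G13Rik (synonym C10orf53; chr14:32376502-32388373), with 27.4, 37.0 and 29.8 CPM in libraries labelled DKO and 52.5, 52.2 and 52.7 CPM in those labelled WT. The libraries labelled WT differed by under 1 CPM, and all 3 labelled DKO lay well below them. The log2 fold change was -0.74 (SE 0.102), with the smallest adjusted p of all members (edgeR adjusted p = 0.0153). Its transcript has 398 bases, and with the offset the change was -0.38 (edgeR adjusted p = 0.0326).

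1700020L24Rik, on chromosome 11, had 67.5, 95.2 and 64.9 CPM in libraries labelled DKO and 126, 115 and 118 CPM in those labelled WT (log2 fold change -0.66, SE 0.126; edgeR adjusted p = 0.025). 1700037H04Rik, on chromosome 2, had 165, 230 and 207 against 273, 285 and 294 CPM (-0.50, SE 0.106; edgeR adjusted p = 0.0271). Both did not overlap between groups, and both were least reduced in DKO replicate 2. The loci of both overlap another gene (Mmp28 and Gm14232). Their counts were whole, so the estimates did not divide fragments between them and other genes. Strand handling is not given, and whether fragments of the overlapping genes were counted was not tested. 1700018B08Rik, on chromosome 8, had 62.7, 70.5 and 65.5 against 84.2, 81.7 and 79.3 CPM (-0.30, SE 0.0714; edgeR adjusted p = 0.0333). With the offset these 3 stayed lower at an adjusted p under 0.05 (edgeR), at -0.59, -0.47 and -0.26.

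Among the higher members with no family name, 1700109H08Rik (chr5:3571716-3584341) had 25.1, 21.5 and 21.2 CPM in libraries labelled DKO and 17.5, 13.4 and 15.4 CPM in those labelled WT. It did not overlap between groups and had the smallest p of the members called higher (log2 fold change 0.55, SE 0.111; edgeR adjusted p = 0.0263). Its locus overlaps Rbm48. 1700102P08Rik (chr9:108392824-108411440, overlapping Iho1) had 91.2, 81.3 and 74.6 against 66.4, 57.9 and 59.6 CPM (0.43, SE 0.0886; edgeR adjusted p = 0.0269). 1700019A02Rik (chr1:53158573-53187764) had 100.4, 91.3 and 101 against 79.3, 71.8 and 79.0 CPM (0.35, SE 0.0744; edgeR adjusted p = 0.0273). In these 3 every library labelled DKO was above every library labelled WT.

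1700066M21Rik, the mouse counterpart of a gene linked to a human mitochondrial disease, had 44.6, 40.3 and 37.7 CPM in libraries labelled DKO and 32.1, 27.0 and 32.1 CPM in those labelled WT (log2 fold change 0.43, SE 0.0928; edgeR adjusted p = 0.0287). 1700008P02Rik had 39.0, 34.8 and 33.7 against 29.2, 23.6 and 26.9 CPM, with the same log2 fold change of 0.43 (edgeR adjusted p = 0.0288). 1700013D24Rik had 77.4, 71.1 and 84.0 against 65.9, 51.8 and 55.7 CPM (0.42; edgeR adjusted p = 0.0317). None of these 3 overlapped between groups. 1700049G17Rik (Zfp974, a zinc finger protein) was the lowest called member, at no less than 9.19 CPM in any library labelled DKO and 7.74, 5.40 and 6.08 CPM in those labelled WT (0.59, SE 0.129; edgeR adjusted p = 0.0288), and its counts were fractional. The remaining calls, named after their values were seen, were 1700006A11Rik, 1700129C05Rik and 1700016C15Rik, with log2 fold changes of 0.34, 0.33 and 0.29.

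**Figure D4:**
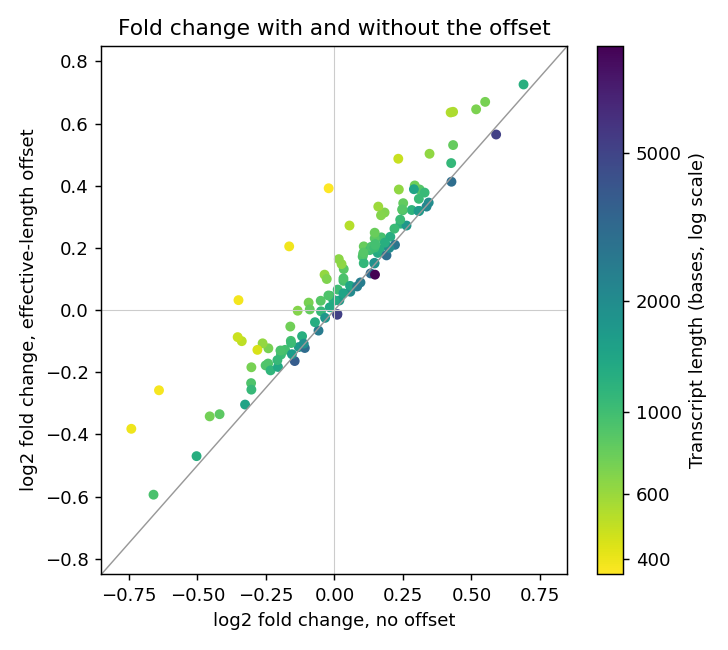
Log2 fold change of the 122 members without an offset (x axis) and with the effective-length offset (y axis); colour is transcript length and the line marks equal values. Members under 600 bases lie above the line, and those of at least 2000 bases lie close to it.

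Over all genes tested the median change rose with transcript length, while among the members it was below 0 only in the class under 600 bases. The members had a median length of 993 bases, against 2623 bases over all genes tested. The 13 members under 600 bases had a median log2 fold change of -0.17, and the 466 tested genes of that length -0.25; 2 members were called higher and 3 lower (15.4% and 23.1%), against 3.65% and 24.2% of those genes. The 16 members of at least 2000 bases had a median of 0.11, against 0.03 over 11081 genes, with 2 called higher and 0 lower (edgeR; 12.5% against 6.14% higher). In the classes between, the members' medians were 0.07, 0.03 and 0.06 for lengths of 600 to 900, 900 to 1200 and 1200 to 2000 bases, against -0.12, -0.08 and -0.06 over all genes.

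The offset allows for the fragment lengths of each library, and the plot of both fold changes shows which members it moved. The median of the 13 shortest members became 0.20, against -0.01 over all genes of that length. Over all 122 it was 0.13 (0.125), against -0.002 over all genes tested. With the offset 18.0% of members were called higher and 4.10% lower, against 5.59% and 4.12% of all genes. Of the noncoding 1700-series genes 12.2% were then called higher and 2.35% lower, so their split also moved towards higher calls. All 16 higher members and 5 of the 7 lower ones kept their call, Tex54 and H2bl1 lost it, and 6 were added, all higher, among them Tex48, Ms4a19 and Nudt16l2. The highest member, 1700015G11Rik, had 140.0, 172 and 128 against 176, 189 and 195 CPM without overlap, a log2 fold change of -0.35 that just missed the threshold (edgeR adjusted p = 0.0502). With the offset it was 0.03 (edgeR adjusted p = 0.85), and its TPM was 1775 ± 188 against 1795 ± 77.6 (SD, n = 3 each). The abundant 1700003F12Rik (-0.46; edgeR adjusted p = 0.082), 1700010D01Rik (-0.34; 0.11) and 1700029F12Rik (-0.23; 0.0857) were not called either.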

How the data were processed

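Per the file headers, each deposited file is RSEM gene-level output for 1 library, with expected counts, TPM, FPKM and lengths. The authors deposited expected counts, which are estimates of fragments per gene and need not be whole. The TPM and FPKM values deposited by the authors are scaled by effective length, and FPKM was not tested. The lengths and effective lengths are other values deposited by the authors. The submitters' processing notes list STAR 2.7.0f, RSEM 1.2.31, DESeq2 1.12.3 and build mm10. Strand handling is not given in the sources used here.

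Expected counts were rounded, filtered with filterByExpr, scaled by TMM and fitted for the whole table with the edgeR 4.0.16 quasi-likelihood test over all 6 libraries. P-values were adjusted by Benjamini-Hochberg over 17110 genes, and genes were called under 0.05. CPM uses TMM library sizes. The standard error is the absolute log2 fold change over the square root of F. Each library's mean fragment length was read from genes longer than 3000 bases, as the median gap between both deposited lengths plus 1. The fit was tested on simulated data. Replicates are separate labelled samples, numbered in order of deposition, and p-values measure the spread between them. Alternatives used limma 3.58.1 and DESeq2 1.42.0. Named members are the 10 highest in WT, the 10 largest changes called in each direction, the 3 smallest p in each direction and a list of 29 members with a known role, which does not hold every member with a newer name. The members and lists were chosen with earlier results of these data known. The roles, length classes, printed promoter stretches, isoform limits and the count of farthest libraries were set after values were seen. The trend in limma on log2(TPM + 1) and log2(TPM + 0.1) was added after the fits without it had been seen. Positions and sequences are from RefSeq GRCm38.p6, the assembly behind mm10.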

Additional observations from a re-analysis of the deposited data

Results flagged for a closer look

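The length column, which the tests of counts do not use, gives the average length of a gene's transcripts weighted by their estimated abundance. Of the 15 members with several transcripts, 3 had a longer value in every library labelled DKO than in any labelled WT and 2 a shorter one. In 1 of them the means differed by at least 1%. This was 1700065D16Rik, at 456.5 bases (455 to 458) in libraries labelled DKO against 437 bases (431 to 441) in those labelled WT. It has 1 coding and 1 noncoding record, and its counts were fractional. Its level was low, at 1.64 to 2.27 CPM in libraries labelled DKO and 2.20 to 2.68 CPM in those labelled WT. Fragment length did not overlap between the groups, so its part in the estimated lengths and that of the genotype label cannot be told apart. The difference in length was not tested.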

How the results depend on the processing

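All counts of called members depended on the threshold and on single libraries. At an adjusted p under 0.01, 0 members were called higher and 0 lower (edgeR), against 0 and 7 of the 17110 genes tested. At an unadjusted p under 0.05 (edgeR), 33 members were higher and 19 lower, against 2896 and 2532 of all genes. With the mean fragment length as a covariate 0 and 0 members were called, against 0 and 1 of all genes. Limma on log2(TPM + 1) called 0 members higher and 0 lower (52 with an unadjusted p under 0.05), and on log2(TPM + 0.1) 0 and 0 (42). Over all genes these fits called 23 (5 higher, 18 lower) and 3 (0 higher, 3 lower), and their count of all genes at an unadjusted p under 0.05 is not given here. A mean-variance trend was added after these results were seen, chosen because it matched counts from an earlier analysis of these data. With it 735 and 947 genes were called, among them 11 and 12 members higher and 5 and 5 lower. DESeq2 called 13 members lower and 20 higher, against 7.23% and 9.68% of all genes. In the 6 fits that each left out 1 replicate, the count called higher ranged from 0 to 21, against 0% to 11.1% of all genes. The count called lower ranged from 0 to 11, against 0.0402% to 6.59% of all genes, and the members' median log2 fold change from 0.007 to 0.094. The 21 came without DKO replicate 3, where 11.1% of all genes were called higher. The 11 came without DKO replicate 2, where 2.83% of all genes were called lower. In the remaining settings the counts were 13 to 22 higher and 5 to 10 lower, against 4.96% to 7.15% and 4.12% to 6.82% of all genes. The median was -0.02 with the fragment length as a covariate and 0.034 to 0.125 in the other settings that kept all libraries. With that covariate 3 called members changed sign, 1700006A11Rik (-0.038), 1700013H16Rik (-0.344) and 1700074P13Rik (-0.013), each at an edgeR adjusted p of 0.999. As fragment length did not overlap between the groups, that fit separates fragment length and genotype label poorly. At a level of 10 TPM, 115 members were detected in WT. No paired analysis was possible because the labels give no pairing and the replicate numbers follow the order of deposition.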

Other observations

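The members were spread over 19 autosomes and the X chromosome where a position was found, with 11 on chromosome 2, 10 each on chromosomes 8 and 11 and 5 on the X. Of the 122, 49 overlapped another RefSeq gene, and 10 of the 23 called members did. Counts were fractional in 9 members, of which 3 were called, all higher (1700020N15Rik, 1700019G17Rik and 1700049G17Rik). Without these 9 members, 13 were called higher and 7 lower.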
